A study of Mus musculus with 20 samples.

Results

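The addition of anti-PD-1, which blocks PD-1, an inhibitory receptor on T cells, to SD-101 was examined in 11 of the 20 arrays of a mouse lung tumour study. SD-101 is a ligand of TLR9, an endosomal receptor for unmethylated CpG DNA. The 5 arrays titled SD-101 PLUS a-PD-1 without a-CD4 (SD-101+anti-PD-1) were set against the 6 arrays titled SD-101, over 17097 genes. All these lungs bore 4T1 cells, a mouse mammary carcinoma line, the treatments were given by the intranasal route per the labels, and RNA came from purified CD44+CD8+ T cells. Both groups received SD-101, so by their labels they differ in the antibody. A further 5 Saline-CTRL and 4 SD-101+anti-PD-1+a-CD4 arrays entered the fit for its estimate of spread. Strain, age, antibody dose and time of harvest are not given in the sources used here. The labels do not say that numbered samples are different animals. The p-values thus cover only the spread between samples as labelled, which may be technical.

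PD-1, encoded by Pdcd1, is induced on T cells after antigen receptor signalling and recruits phosphatases that dampen it. Its ligand PD-L1, encoded by Cd274, is carried by tumour and immune cells and is raised by interferons. Antibodies to PD-1 block that contact and are used to restore proliferation, cytokine release and killing by CD8 T cells in tumours.

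Values are log2 expression values of a probe set, so a difference of 1 is a doubling of the signal, and levels of different genes cannot be set against each other. A gene was called when its limma adjusted p was under 0.05. Genes said to have risen or fallen are called genes, in SD-101+anti-PD-1 relative to SD-101. In all, 816 of 17097 genes were called (4.77%): 602 rose (3.52%) and 214 fell (1.25%). In 699 genes (4.09%) every SD-101+anti-PD-1 array lay above every SD-101 array, and in 257 (1.5%) every one lay below. The number of calls depended on single arrays. Leaving out 1 array at a time gave 317 to 1081 calls. The count was 344, 539, 422 or 317 without SD-101+anti-PD-1 replicate 1, 2, 3 or 4, and 405, 373 or 522 without SD-101 replicate 3, 4 or 5. The median difference over all genes was 0.008. The deposited values carry no detection call, so a value at or below the array medians (3.52 to 3.75) is not shown to be above background. Where at least 3 arrays of 1 group lie there, the difference is that of the deposited values and no fold is given. Among the genes named below this applies to Aplnr, Gpihbp1, Ushbp1, Mcpt1, Mcpt2, Cma1, Gzmc, C1qa, Mmp12, Rgs5, Notch4, Dll4 and Ace in SD-101+anti-PD-1, to Tmem212, Pifo and several other cilium genes in SD-101, and to Mcpt4, Col1a2, Dnah5, Hydin, Flt4, Cd4 and Tlr9 in both groups.

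The genes of the sort and of lung epithelium are given first, each against its own values only. Over the 11 arrays Cd8a lay between 10.38 and 11.18, Cd8b1 between 10.61 and 11.41 and Cd4 between 2.69 and 3.43. Sftpc, which encodes surfactant protein C in alveolar type 2 cells, was at 13.35 to 13.44 in SD-101+anti-PD-1 and 12.53 to 13.32 in SD-101. Scgb1a1, the secretoglobin of club cells, was at 12.65 to 12.95 in SD-101+anti-PD-1 and 9.47 to 12.67 in SD-101. The 3 control probe sets for 18S ribosomal RNA were above every SD-101 array on every SD-101+anti-PD-1 array, with means for the 5′ set of 12.11 ± 0.19 in SD-101+anti-PD-1 and 11.49 ± 0.18 in SD-101 (SD, n = 5 and n = 6). Any part of these other RNAs in the results was not tested. In such samples of many cells, fewer cells of a type and less RNA per cell cannot be told apart.

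Genes of T cell effector function are set beside all genes, of which 4.77% were called. Of 31 measured genes for cytotoxic effector molecules, 0 rose and 1 fell, with a median difference of -0.021. Of 12 inhibitory receptor genes none was called (range of differences -1.10 to 0.20). The limma fit found 3122 of all genes at an unadjusted p under 0.05. Of 15 genes of the T cell receptor complex and CD8, 0 were called, and their differences lay between -0.19 and 0.26. Beside the share of all genes, counts this small in such short lists are no result about these genes. Tcf7 and Tox were not analysed here.

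Pdcd1 itself was at 7.16, 7.64, 7.91, 7.23 and 7.33 in SD-101+anti-PD-1 replicates 1 to 5, against 6.42, 6.35, 7.01, 7.86, 8.21 and 7.70 in SD-101 replicates 1 to 6. The SD-101 arrays spanned the SD-101+anti-PD-1 range on both sides. The difference was 0.20 with a 95% interval of -0.69 to 1.08 (adjusted p = 0.876 in limma). For Cd274, which encodes the PD-1 ligand PD-L1, the difference was -0.19 (interval -0.66 to 0.28).

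Gzmb, the protease granzyme B of cytotoxic granules, was at 10.05, 10.18, 11.19, 10.12 and 10.45 in SD-101+anti-PD-1, against 9.79, 10.47, 10.08, 10.20, 10.06 and 10.49 in SD-101. The groups overlapped, and 1 SD-101+anti-PD-1 array, replicate 3, stood above the rest. Its difference was 0.21 (interval -0.60 to 1.03). Gzmk, granzyme K, was at 9.47, 9.61, 10.56, 9.76 and 10.04 in SD-101+anti-PD-1, against 8.97, 8.83, 8.96, 9.0, 9.42 and 9.54 in SD-101. Only SD-101 replicate 6 reached into the SD-101+anti-PD-1 range. That gene, named after its values were seen, differed by 0.77 ± 0.29 (SE) and was not called (adjusted p = 0.142 in limma).

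Ifng, the gene of interferon-gamma, was at 8.49, 8.34, 8.63, 7.93 and 9.01 in SD-101+anti-PD-1, against 7.90, 7.64, 9.42, 9.87, 9.98 and 9.75 in SD-101. SD-101 replicates 1 and 2 were the lowest of the 11 and replicates 3 to 6 the highest. The difference of -0.61 had an interval of -1.63 to 0.40. Prf1, the pore-forming perforin, differed by -0.42 (interval -1.21 to 0.37) and was named after its values were seen. The transcription factors Tbx21 (T-bet) and Eomes, which direct effector and memory CD8 cells, differed by 0.09 (interval -0.56 to 0.74) and -0.02 (interval -0.91 to 0.86).

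Gzmc, a granzyme gene of the same genomic cluster as Gzmb, was the cytotoxic gene that fell. It was at 3.13, 3.26, 3.62, 3.16 and 3.49 in SD-101+anti-PD-1, against 3.60, 3.82, 4.68, 5.20, 4.26 and 3.67 in SD-101, a difference of -0.87 ± 0.23 (SE; adjusted p = 0.0343 in limma). SD-101 replicates 3, 4 and 5 carried the high values, and the groups overlapped. The call was lost in 6 of 11 fits without 1 array: SD-101+anti-PD-1 replicate 1, 2 or 4, or SD-101 replicate 3, 4 or 5 (adjusted p at most 0.101).

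**Figure D1:**
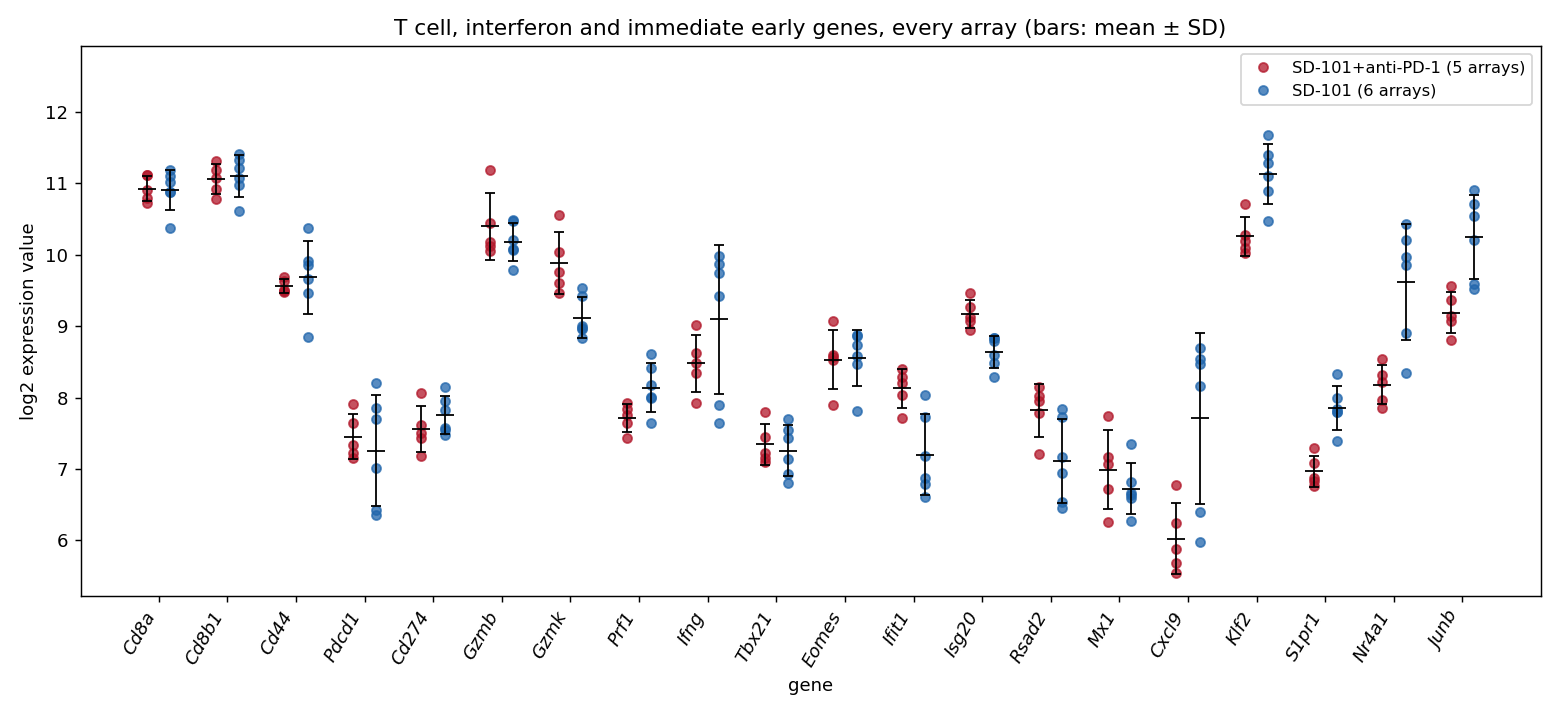
Log2 expression value (vertical axis) of 20 T cell, interferon-stimulated and immediate early genes on each SD-101+anti-PD-1 array (red, left of each pair) and SD-101 array (blue), with the mean ± SD in black. Cd8a, Cd8b1, Pdcd1 and Gzmb overlap between the groups, while all 5 S1pr1 values of SD-101+anti-PD-1 lie below the 6 of SD-101.

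Genes switched on by type I interferon, the antiviral cytokine family that TLR9 ligands elicit, are given next. Of 30 measured, 2 rose and 0 fell, where 3.52% of all genes rose and 1.25% fell. Of the 30 differences 24 were positive, with a median of 0.209. Ifit1, whose protein binds viral RNA lacking host cap marks, was at 8.29, 7.71, 8.03, 8.21 and 8.40 in SD-101+anti-PD-1, against 7.18, 8.04, 7.73, 6.79, 6.87 and 6.61 in SD-101. SD-101 replicates 2 and 3 lay within the SD-101+anti-PD-1 range and the other four below it. Ifit1 rose by 0.92 ± 0.26 (SE; adjusted p = 0.045 in limma). Isg20, an exonuclease that acts on viral RNA, was at 9.27, 8.95, 9.46, 9.13 and 9.07 in SD-101+anti-PD-1, against 8.29, 8.83, 8.79, 8.49, 8.83 and 8.59 in SD-101. These groups did not overlap, and the rise was 0.54 ± 0.15 (SE; adjusted p = 0.0452 in limma). Rsad2 (viperin) differed by 0.71 (interval 0.16 to 1.26) and Mx1, a dynamin-like antiviral GTPase, by 0.27 (interval -0.45 to 0.99); neither was called, and both were named after their values were seen. The calls of Ifit1 and Isg20 depended on single arrays. Each was lost in 8 of the 11 fits without 1 array (adjusted p at most 0.119 for Ifit1 and 0.121 for Isg20), and 0 genes of the list were called without any one of SD-101+anti-PD-1 replicates 1, 3 and 4 or SD-101 replicates 1, 4, 5 and 6. Centring each array on its median also left 0.

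The promoter of Ifit1 shows the element through which interferon acts on many such genes, a pair of GAAA repeats bound by the interferon-activated STAT and IRF proteins. The sequence below runs 5′ to 3′ along the gene (RefSeq, GRCm38.p6, chr19:34640740-34640839, plus strand). Capitals mark matches to the element's core, GAAANNGAAA, read on either strand.
Ifit1: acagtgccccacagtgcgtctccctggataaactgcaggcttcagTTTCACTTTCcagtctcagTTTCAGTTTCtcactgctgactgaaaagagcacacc
Among 27025 genes with a promoter window of 250 bases before to 50 bases after the start, 3.99% held this core. It was present in 10 of the 19 measured interferon-stimulated genes that had a window. A match describes letters only.

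Of 28 measured chemokine ligand genes, 1 rose and 1 fell, with a median difference of -0.106. Over all genes 3.52% rose and 1.25% fell. Cxcl11, an interferon-induced ligand of CXCR3 on effector T cells, was at 4.62, 5.32, 3.54, 3.89 and 4.33 in SD-101+anti-PD-1, against 4.84, 7.56, 7.39, 6.34, 6.79 and 5.00 in SD-101. It fell by 1.98, with an SE of 0.52 (adjusted p = 0.0349 in limma). SD-101 replicates 1 and 6 were near the SD-101+anti-PD-1 arrays and the other four well above. Cxcl9, the related CXCR3 ligand, had the same arrays low: 6.24, 6.78, 5.54, 5.88 and 5.69 in SD-101+anti-PD-1, against 5.98, 8.70, 8.54, 8.47, 8.16 and 6.4 in SD-101. Its difference of -1.68 was not called (adjusted p = 0.0582 in limma), and it was named after its values were seen. Both ligands are made mainly by myeloid, endothelial and other stromal cells. The call of Cxcl11 was lost in 7 of 11 fits (without SD-101+anti-PD-1 replicate 1, 3 or 4, or SD-101 replicate 2, 3, 4 or 5; adjusted p at most 0.0997). Of 15 chemokine receptor genes, Ccrl2, an atypical receptor that binds chemerin, fell by 1.29 ± 0.36 (SE; adjusted p = 0.0497 in limma); its call held in only 1 of the 11 fits, that without SD-101 replicate 6.

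Immediate early genes, transcribed within minutes of receptor signalling or handling stress, fell in part with anti-PD-1. Of 25 measured, 10 fell and 0 rose, where 1.25% of all genes fell and 3.52% rose. The median difference was -0.736. Nr4a1, an orphan nuclear receptor that reports recent antigen receptor signals, was at 8.22, 8.54, 7.86, 7.97 and 8.32 in SD-101+anti-PD-1, against 8.90, 8.34, 9.97, 9.85, 10.21 and 10.43 in SD-101. Its fall was 1.43, with an SE of 0.35 (adjusted p = 0.024 in limma). Junb, a subunit of the AP-1 transcription factor, was at 9.37, 9.14, 8.80, 9.07 and 9.56 in SD-101+anti-PD-1, against 9.59, 9.52, 10.54, 10.21, 10.71 and 10.91 in SD-101. For both genes SD-101 replicates 1 and 2 lay within 0.4 of the highest SD-101+anti-PD-1 array or below it, and replicates 3 to 6 lay above all other arrays. Junb fell by 1.06. The calls of Nr4a1 and Junb were lost in 6 and 3 of 11 fits without 1 array (adjusted p at most 0.0718 and 0.0646). Fosb, another AP-1 subunit named after its values were seen, fell by 1.51, with an SE of 0.42 (adjusted p = 0.0457 in limma), and its call was lost in 8 of 11 fits. Dusp1, a phosphatase that ends MAP kinase signals, and Ier2, a short-lived nuclear protein, fell by 0.88 and 0.82, with calls lost in 6 and 1 of 11 fits. Atf3, a stress-induced transcription factor, had the lowest difference of the list, -2.01, and was not called (adjusted p = 0.0591 in limma; named after its values were seen).

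The split within SD-101 applied to the list as a whole. Its score, the mean log2 value of the measured members on an array, was 8.16, 8.24, 7.95, 7.96 and 8.24 in SD-101+anti-PD-1, against 8.27, 8.23, 9.21, 9.15, 9.25 and 9.19 in SD-101. SD-101 replicates 1 and 2 thus sat at the upper edge of the SD-101+anti-PD-1 arrays. Counts of fallen members depended on which arrays were in: 0 of 25 were called without SD-101+anti-PD-1 replicate 4, 1 without SD-101 replicates 5 and 6, and 18 without SD-101 replicates 1 and 2. The scores of the other groups were 8.50 to 9.39 in Saline-CTRL and 8.03 to 8.31 in the arrays with a-CD4. Of 15 heat shock genes 1 fell, where 1.25% of all genes fell. This was Hspa1b, an inducible HSP70 chaperone, at 7.15, 7.94, 6.38, 7.05 and 7.01 in SD-101+anti-PD-1, against 7.94, 9.59, 8.68, 9.58, 9.51 and 9.05 in SD-101. Its lowest SD-101 value, in replicate 1, equalled the highest of SD-101+anti-PD-1 at this rounding, and its call was lost without SD-101+anti-PD-1 replicate 1, 3 or 4 or SD-101 replicate 4 or 5 (adjusted p at most 0.075).

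Genes linked to quiescence and tissue exit were lower in part. Of 18 measured genes of memory and quiescence, 3 fell (Klf4, S1pr1 and Klf2) and 0 rose, where 1.25% of all genes fell. KLF2 drives S1PR1, the receptor with which T cells follow sphingosine-1-phosphate out of tissue, and KLF4 restrains proliferation. S1pr1 was at 6.88, 6.76, 6.83, 7.08 and 7.29 in SD-101+anti-PD-1, against 8.33, 7.99, 7.80, 7.84, 7.39 and 7.80 in SD-101. These values did not overlap, and the fall was 0.89, with an SE of 0.23 (adjusted p = 0.0346 in limma). Klf2 was at 10.19, 10.10, 10.02, 10.27 and 10.71 in SD-101+anti-PD-1, against 10.89, 10.47, 11.39, 11.10, 11.29 and 11.67 in SD-101, and fell by 0.88, with an SE of 0.23 (adjusted p = 0.0344 in limma). SD-101 replicate 2 alone lay within the SD-101+anti-PD-1 range. Klf4 was at 7.67, 7.85, 7.23, 7.33 and 7.49 in SD-101+anti-PD-1, against 8.21, 9.02, 9.46, 9.26, 9.29 and 9.07 in SD-101, with no overlap and a fall of 1.54 (SE 0.27; adjusted p = 0.00307 in limma). Klf2, Klf4 and S1pr1 are also active in vascular endothelium, whose genes fell on these arrays as described below; the part of endothelial RNA in these falls was not tested. The calls of Klf2 and S1pr1 were each lost in 8 of 11 fits without 1 array (adjusted p at most 0.0906 and 0.0924), while Klf4 kept its call in all 11.

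Of 12 tissue residency genes 1 fell and none rose, where 1.25% of all genes fell. This was Rgs2, which dampens G protein signals, and it fell by 1.08 ± 0.30 (SE; adjusted p = 0.0451 in limma). Its call was lost in 8 of 11 fits, with an adjusted p of at most 0.116. Cd69, which retains T cells in tissue by pulling S1PR1 off the surface, was at 8.48, 8.03, 8.64, 8.16 and 8.92 in SD-101+anti-PD-1, against 9.02, 8.20, 10.41, 10.22, 10.52 and 10.71 in SD-101. SD-101 replicates 1 and 2 again stood with or just above the SD-101+anti-PD-1 arrays. Its difference of -1.40 was not called (adjusted p = 0.0931 in limma), and it was named after its values were seen.

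**Figure D2:**
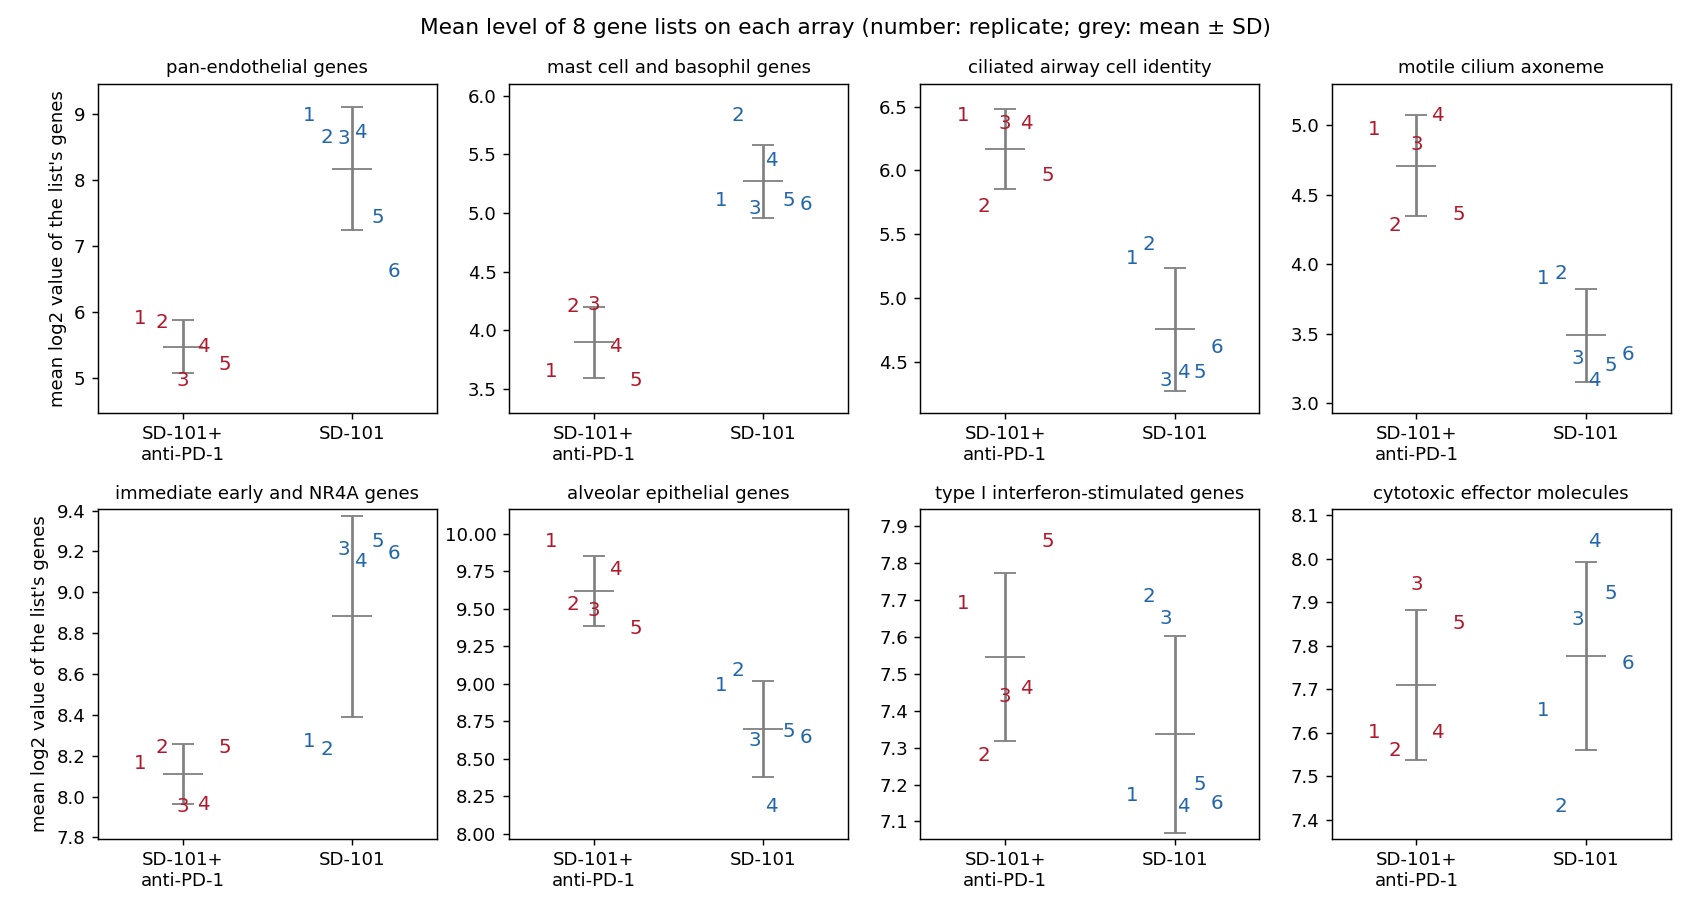
Mean log2 value of the measured genes of 8 lists (vertical axis) on each array, SD-101+anti-PD-1 in red on the left and SD-101 in blue on the right of each panel; digits are replicate numbers and grey bars the mean ± SD. Endothelial, mast cell, ciliated and alveolar scores do not overlap between the groups, the immediate early score of SD-101 replicates 1 and 2 (8.27 and 8.23) lies at the SD-101+anti-PD-1 level, and interferon and cytotoxic scores overlap.

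Genes of blood vessel endothelium fell. Of 24 measured pan-endothelial genes 22 fell and 0 rose, where 1.25% of all genes fell. The median difference was -2.798 against 0.008 over all genes. In 19 of 24 every SD-101+anti-PD-1 array lay below every SD-101 array, against 1.5% of all genes. Endothelial cells line vessels and are not T cells. The list score was 5.89, 5.83, 4.95, 5.47 and 5.20 in SD-101+anti-PD-1, against 8.97, 8.63, 8.62, 8.72, 7.42 and 6.61 in SD-101. Within SD-101, replicates 5 and 6 were the lowest, yet above all SD-101+anti-PD-1 arrays.

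Aplnr, the apelin receptor of growing capillaries and veins, was at 4.26, 4.64, 2.88, 2.69 and 3.0 in SD-101+anti-PD-1, against 9.46, 8.29, 8.49, 8.68, 7.32 and 5.74 in SD-101, a difference of -4.50 ± 0.59 (SE; adjusted p = 0.00076 in limma). Gpihbp1, which anchors lipoprotein lipase on lung and other capillaries, was at 4.70, 5.92, 3.24, 3.45 and 3.16 in SD-101+anti-PD-1, against 9.34, 9.03, 8.98, 9.01, 7.47 and 6.31 in SD-101. Neither gene overlapped between the groups, and in both the lowest SD-101 value was that of replicate 6. Tek, the angiopoietin receptor TIE2, was at 5.02, 4.88, 4.30, 4.48 and 4.42 in SD-101+anti-PD-1, against 9.56, 9.03, 8.90, 8.83, 7.01 and 6.10 in SD-101 (difference -3.62 ± 0.63, SE; adjusted p = 0.0029 in limma).

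Genes of endothelial junctions and surface proteins also had their lowest SD-101 values in replicates 5 and 6. Cdh5, VE-cadherin, the adhesion molecule that defines endothelial junctions, was at 5.81, 5.56, 3.77, 4.82 and 4.40 in SD-101+anti-PD-1, against 9.10, 8.73, 8.57, 8.65, 7.36 and 6.49 in SD-101. It was 9.7-fold lower (adjusted p = 0.00117 in limma). Cldn5, a tight junction claudin, averaged 6.84 ± 0.60 in SD-101+anti-PD-1 and 9.64 ± 0.77 in SD-101 (SD, n = 5 and n = 6). Plvap, which forms the diaphragms of fenestrae and caveolae, averaged 5.05 ± 0.60 in SD-101+anti-PD-1 and 8.60 ± 1.15 in SD-101. Pecam1 (CD31), which some leukocytes also carry, averaged 6.65 ± 0.41 in SD-101+anti-PD-1 and 8.98 ± 0.71 in SD-101 and fell by 2.33. Emcn, Clec14a, Clec1a, Cd93 and Calcrl, which encode surface proteins or receptors of endothelium, fell by 3.34, 3.51, 3.56, 3.15 and 2.62. Sox17, a transcription factor of arterial identity, fell by 3.58. Acer2, a ceramidase, Ushbp1 and Hpgd, the enzyme that inactivates prostaglandin E2, are on no list used here and were among the largest falls, at 3.19, 3.19 and 3.10; Hpgd overlapped between the groups.

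Markers of vessel subtypes fell in part. Of 21 measured, 11 fell and 0 rose, with a median of -1.889, where 1.25% of all genes fell. Of the 21, 4 are also on the pan-endothelial list (Aplnr, Gpihbp1, Plvap and Vwf). Car4, a carbonic anhydrase of one class of lung capillary cell, was at 6.52, 6.13, 5.37, 5.17 and 5.21 in SD-101+anti-PD-1, against 9.12, 8.92, 8.64, 9.33, 7.76 and 7.07 in SD-101. It fell by 2.79, with an SE of 0.42 (adjusted p = 0.00117 in limma). Sema3g, a secreted semaphorin of arteries, averaged 4.06 ± 0.92 in SD-101+anti-PD-1 and 7.46 ± 1.06 in SD-101, and Vwf, the von Willebrand factor of larger vessels, averaged 5.64 ± 0.43 in SD-101+anti-PD-1 and 8.01 ± 0.78 in SD-101. Genes of capillary and arterial cells were thus among the falls. Prox1 and Pdpn, listed as lymphatic genes, had differences of -0.13 and 0.94 and were not called. The source cells of their RNA were not tested, so these values do not show whether lymphatic RNA changed. Flt4, a further lymphatic gene, differed by 0.02, but all its values (2.84 to 3.39) were below the array medians, where a fall could not show. Lyve1, a hyaluronan receptor of lymphatic and some other cells, fell by 2.50.

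The pan-endothelial falls were called in most genes whichever array was left out. Without any 1 of the 11 arrays, 20 to 22 of the 24 pan-endothelial genes were called and the median lay between -3.11 and -2.57. Without SD-101 replicates 5 and 6, 22 were called with a median of -3.44, and without SD-101 replicates 1 and 2, 21 with a median of -2.42. The score was 8.74 ± 0.85 in Saline-CTRL (SD, n = 5) and 6.66 ± 0.56 in the arrays with a-CD4 (SD, n = 4).

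**Figure D3:**
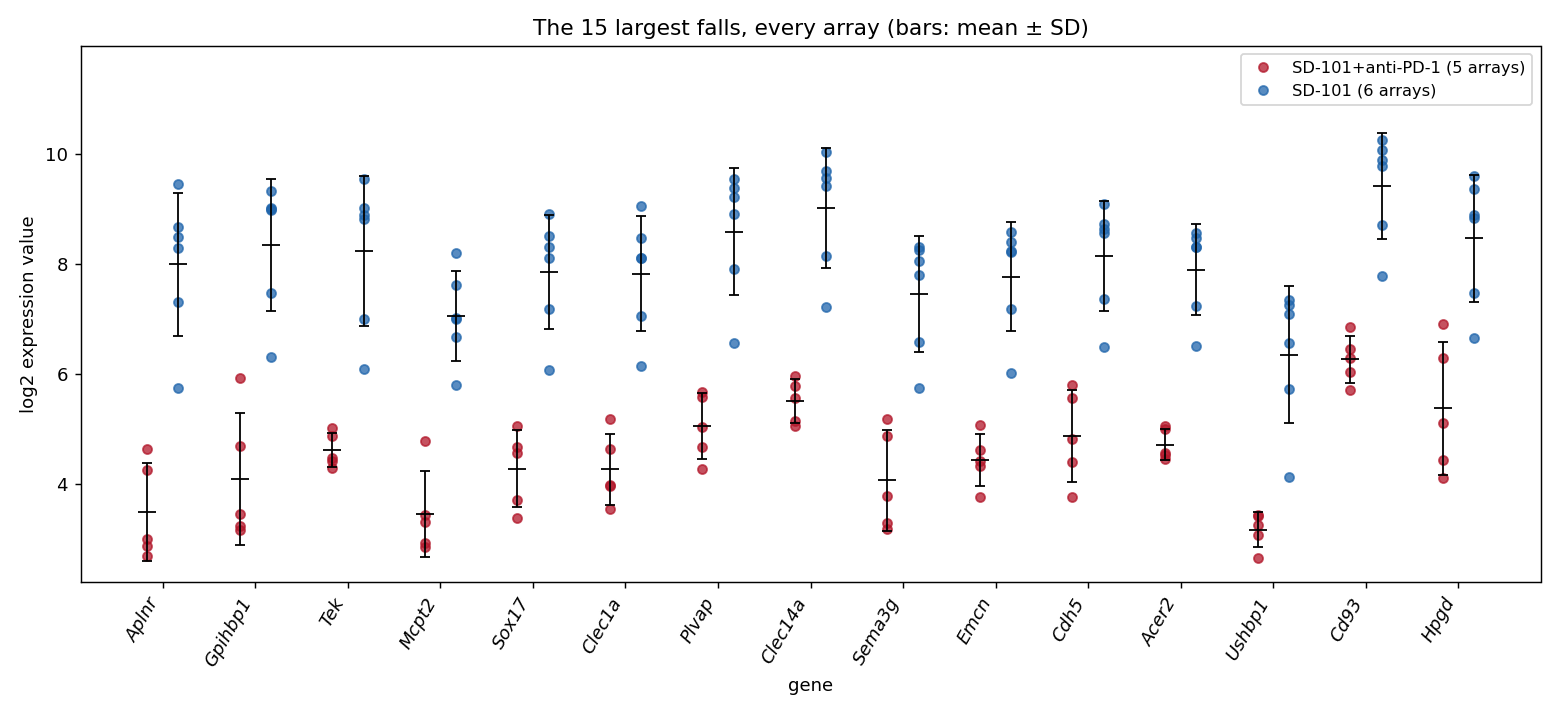
Log2 expression value (vertical axis) of the 15 genes with the largest falls, on each SD-101+anti-PD-1 array (red, left of each pair) and SD-101 array (blue), with the mean ± SD in black. In every gene but Hpgd the 5 SD-101+anti-PD-1 points lie below all 6 SD-101 points, and the SD-101 points spread over 2 to 4 units.

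Mast cell genes fell too. Of 13 measured genes of mast cells and basophils, 7 fell and 0 rose, where 1.25% of all genes fell. Those 7 of the 13 had every SD-101+anti-PD-1 array below every SD-101 array, against 1.5% of all genes. Mcpt2, a chymase-type protease of mucosal mast cells, was at 2.92, 4.78, 3.31, 3.43 and 2.85 in SD-101+anti-PD-1, against 5.81, 8.21, 7.02, 7.63, 7.01 and 6.67 in SD-101. The difference was -3.60 ± 0.48 (SE; adjusted p = 0.00084 in limma), with 4 of the 5 SD-101+anti-PD-1 values below the array medians. Cma1, another mast cell chymase, had the smallest adjusted p of the named genes: 2.96, 3.76, 2.61, 2.88 and 3.36 in SD-101+anti-PD-1, against 4.96, 6.50, 5.71, 6.78, 6.31 and 6.35 in SD-101 (difference -2.99 ± 0.28, SE; adjusted p = 5e-05 in limma). SD-101 replicate 1 was the lowest of its group in both. Mcpt1, a further mucosal protease, was at 2.38, 2.94, 2.05, 2.74 and 2.11 in SD-101+anti-PD-1, against 3.63, 7.05, 5.63, 5.27, 5.05 and 4.62 in SD-101. It fell by 2.76 in the deposited values, and all 5 SD-101+anti-PD-1 values were below the array medians.

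Cpa3, the carboxypeptidase of mast cell granules, was at 3.50, 5.21, 5.67, 4.61 and 4.31 in SD-101+anti-PD-1, against 7.50, 7.08, 6.86, 7.20, 6.88 and 7.33 in SD-101. Here the SD-101 arrays were tight and the SD-101+anti-PD-1 arrays spread. Kit, the receptor for stem cell factor, and Gata2, a transcription factor that mast cells need, fell by 1.45 and 1.91. Both genes are active in endothelium as well, and their SD-101 values were lowest in replicates 5 and 6, as was the endothelial score. Gata2 was at 5.35 and 5.40 there, against 6.46 to 7.26 in replicates 1 to 4. Kit was at 7.18 and 6.89 there, against 7.47 to 8.57 in replicates 1 to 4. The part of endothelial RNA in the falls of Kit and Gata2 was not tested. Mcpt4, a chymase of connective tissue mast cells, fell by 0.66. Among members not called, the basophil protease gene Mcpt8 differed by -1.80 and Hdc, which makes histamine, by 1.84. Kit, Gata2 and Mcpt4 were named after their values were seen. The proteases' group means in Saline-CTRL were nearer those of SD-101+anti-PD-1: Cma1 averaged 3.54 and Mcpt2 4.66 there. Without any 1 array, 6 to 8 members were called.

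Other leukocyte lists are set beside all genes, of which 1.25% fell. Of 25 macrophage and monocyte genes 2 fell, C1qa and Mmp12, the complement component and the macrophage elastase. Mmp12 was at 4.10, 3.32, 3.13, 2.98 and 3.45 in SD-101+anti-PD-1, against 4.09, 4.70, 7.19, 9.26, 5.05 and 4.37 in SD-101. SD-101 replicate 4 stood far above the others, and the macrophage list score was also highest on that array, at 6.93 against 4.87 to 5.83 on the rest of SD-101. C1qa lost its call in 9 of 11 fits and Mmp12 in 7 (adjusted p at most 0.106 and 0.121). Ncr1, the activating receptor NKp46 of natural killer cells, was at 5.37, 5.24, 5.05, 5.32 and 5.28 in SD-101+anti-PD-1, against 6.41, 6.01, 8.06, 7.95, 7.24 and 6.45 in SD-101. It was the 1 of 12 natural killer receptor genes that fell, by 1.77 (SE 0.39; adjusted p = 0.0144 in limma), without overlap and in all 11 fits without 1 array. Of the 12 differences 11 were negative, with a median of -0.519. The list score was 4.53, 4.58, 4.78, 4.39 and 4.59 in SD-101+anti-PD-1, against 4.89, 4.97, 5.86, 6.51, 5.46 and 5.18 in SD-101. Those scores did not overlap, and SD-101 replicate 4 was the highest, as for the macrophage list. Cd22, a B cell inhibitory receptor, was the 1 of 16 B cell genes that fell, by 1.91; its groups overlapped, and the call was lost in 4 of 11 fits. Ighm, the IgM heavy chain, differed by -0.84 (interval -2.17 to 0.50).

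Genes of motile cilia rose. Multiciliated cells of the airway beat to clear mucus, under a programme led by FOXJ1 and RFX factors. Of 19 genes of ciliated cell identity 12 rose and 0 fell (median 1.237), and of 23 genes of the axoneme, the microtubule core of the cilium, 19 rose and 0 fell (median 1.301). On the identity list 10 of 19 and on the axoneme list 17 of 23 had every SD-101+anti-PD-1 array above every SD-101 array. Over all genes that share was 4.09%, and 3.52% rose. The identity score was 6.43, 5.72, 6.37, 6.37 and 5.96 in SD-101+anti-PD-1, against 5.31, 5.42, 4.35, 4.42, 4.42 and 4.61 in SD-101. SD-101 replicates 1 and 2 were intermediate, between the other SD-101 arrays and SD-101+anti-PD-1.

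RFX factors recognise the X-box, a half-site repeated on the opposite strand. The sequences show it in the 3 called cilium genes of largest rise that held the palindromic core GTNNCCNNGGNNAC, and in the 2 of largest rise that held only a half-site (GTTACC or GTTGCC on either strand). They are RefSeq promoter letters of GRCm38.p6, 5′ to 3′ along the gene, with the matches in capitals, from chr3:106001461-106001560 (minus strand) for Pifo, chr1:171122920-171123019 (plus) for Cfap126, chr16:16829314-16829413 (minus) for Spag6l, chr3:27896334-27896433 (minus) for Tmem212 and chr9:44240478-44240577 (plus) for Ccdc153.
Pifo: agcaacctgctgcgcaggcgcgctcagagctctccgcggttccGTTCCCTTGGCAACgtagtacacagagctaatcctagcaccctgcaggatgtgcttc
Cfap126: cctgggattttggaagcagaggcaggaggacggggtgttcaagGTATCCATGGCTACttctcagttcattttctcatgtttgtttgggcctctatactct
Spag6l: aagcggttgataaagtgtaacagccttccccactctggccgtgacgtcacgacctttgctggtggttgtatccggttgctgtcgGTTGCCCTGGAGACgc
Tmem212: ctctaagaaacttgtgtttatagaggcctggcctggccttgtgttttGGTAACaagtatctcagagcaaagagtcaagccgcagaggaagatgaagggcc
Ccdc153: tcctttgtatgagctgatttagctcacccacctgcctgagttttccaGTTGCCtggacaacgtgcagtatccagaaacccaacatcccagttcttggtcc
The palindromic core was in 7 of the 37 measured genes of both cilium lists that had a window (18.9%) and in 2.16% of all genes with one. A half-site, searched after values were seen, was in 24 of the 37 (64.9%) and in 20.8% of all, and some palindromic matches contain it. The matches are descriptions of letters in these windows.

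Tmem212, a membrane protein gene of ciliated cells, was at 8.05, 7.01, 8.18, 8.41 and 7.67 in SD-101+anti-PD-1, against 6.30, 6.41, 3.27, 2.66, 3.68 and 4.49 in SD-101, a rise of 3.40 ± 0.73 (SE; adjusted p = 0.0121 in limma). Ccdc153, which encodes a coiled-coil protein of ciliated cells, was at 8.33, 7.31, 8.27, 8.21 and 7.74 in SD-101+anti-PD-1, against 6.36, 6.49, 3.83, 4.39, 3.56 and 4.64 in SD-101. In both genes SD-101 replicates 1 and 2 were more than 1.5 units above the rest of their group and still below SD-101+anti-PD-1. Pifo, a regulator of cilium disassembly, was at 6.53, 5.80, 6.72, 7.04 and 6.08 in SD-101+anti-PD-1, against 4.93, 4.94, 3.05, 2.56, 3.04 and 3.31 in SD-101 (rise 2.80 ± 0.43, SE; adjusted p = 0.00121 in limma).

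Foxj1, the master regulator of motile ciliogenesis, was at 6.98, 5.82, 6.76, 6.88 and 6.30 in SD-101+anti-PD-1, against 4.70, 5.35, 3.94, 4.10, 4.41 and 4.74 in SD-101. It was 4.02-fold higher (adjusted p = 0.000398 in limma) with no overlap. Rfx2 and Rfx3, its partner factors, which other cells also transcribe, differed by 0.30 and 0.26 and were not called. Structural parts rose with Foxj1. Rsph1, of the radial spoke head, rose by 2.42, Dnali1, an inner dynein arm chain, by 1.99, Cfap52, of the inner microtubule wall, by 1.69, and Dnah5, the outer arm heavy chain mutated in primary ciliary dyskinesia, by 0.82. Zmynd10, which helps assemble dynein arms in the cytoplasm, rose by 1.75, and Hydin, of the central pair, by 0.61. Ak7, an adenylate kinase of cilia, rose by 2.65. Nme5, Eno4, Cfap126, Cdhr4 and Fam183b were also among the 15 largest rises, at 2.56, 2.38, 2.72, 2.44 and 2.30.

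Dropping single arrays left 10 to 13 of the identity genes and 15 to 19 of the axoneme genes called. The identity score in the other groups was 4.65 ± 0.42 in Saline-CTRL (SD, n = 5) and 4.84 ± 0.43 in the arrays with a-CD4 (SD, n = 4), with every one of those arrays below every SD-101+anti-PD-1 array.

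**Figure D4:**
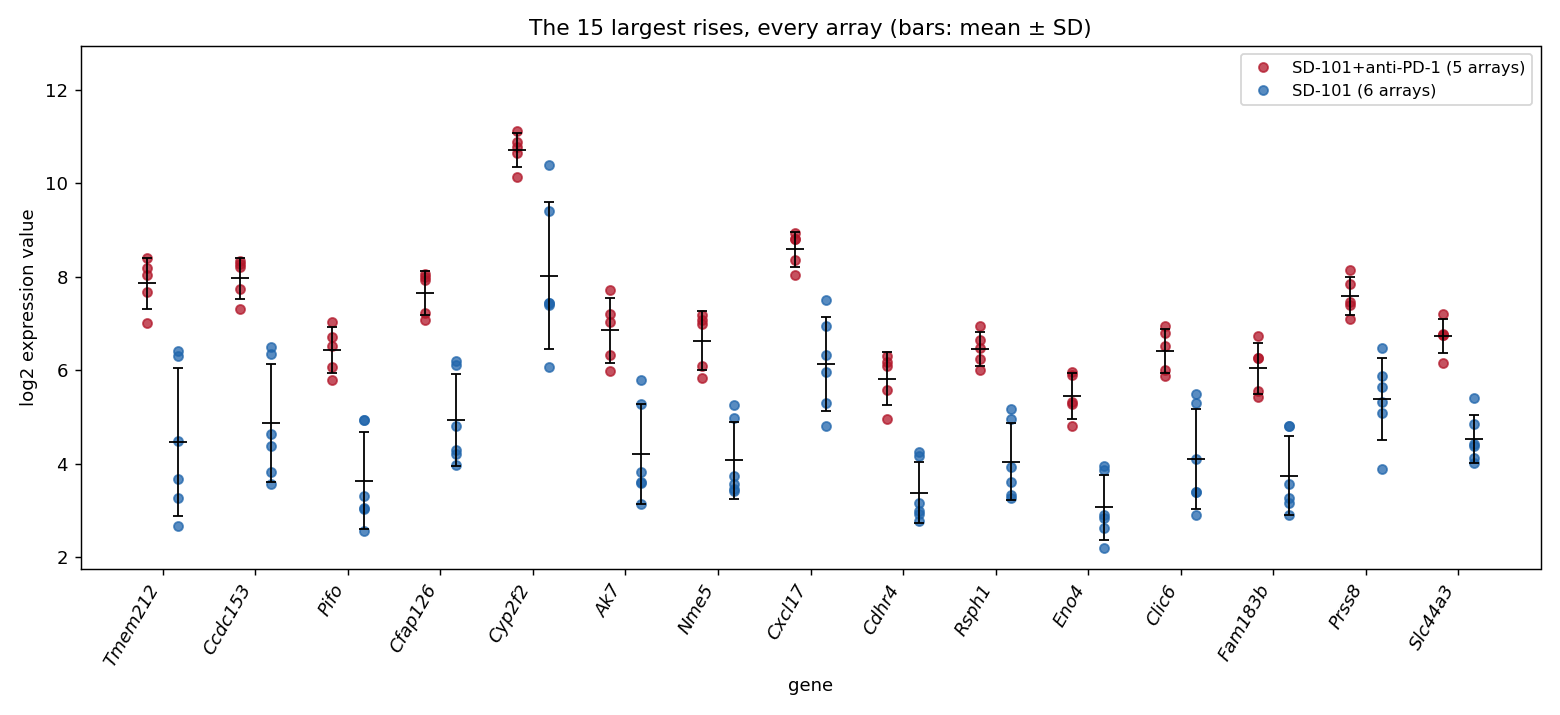
Log2 expression value (vertical axis) of the 15 genes with the largest rises, on each SD-101+anti-PD-1 array (red, left of each pair) and SD-101 array (blue), with the mean ± SD in black. In every gene but Cyp2f2 the SD-101+anti-PD-1 points lie above all 6 SD-101 points, and in many the SD-101 points form an upper pair and a lower cluster.

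Other epithelial lists held fewer called genes. Of 24 airway secretory genes 2 rose, Cyp2f2 and Cxcl17, where 3.52% of all genes rose. The median difference was 0.755. Cyp2f2, a cytochrome P450 of club cells, was at 10.88, 10.14, 10.77, 11.12 and 10.64 in SD-101+anti-PD-1, against 10.40, 9.40, 7.40, 6.07, 7.43 and 7.45 in SD-101. SD-101 replicate 1 lay within the SD-101+anti-PD-1 range and replicate 2 below it but above the rest. Cxcl17, a mucosal chemokine-like protein and the ligand gene that rose, was at 8.93, 8.37, 8.80, 8.80 and 8.05 in SD-101+anti-PD-1, against 6.95, 7.51, 5.31, 4.81, 5.96 and 6.32 in SD-101. Scgb1a1 differed by 1.71 and was not called (adjusted p = 0.107 in limma; named after its values were seen). The secretory calls turned on single arrays. None was left without SD-101+anti-PD-1 replicate 1, 3 or 4 or SD-101 replicate 3 or 4, nor without SD-101 replicates 5 and 6, while 10 genes were called without SD-101 replicates 1 and 2.

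Of 18 alveolar epithelial genes 2 rose, where 3.52% of all genes rose. In 14 of 18 every SD-101+anti-PD-1 array lay above every SD-101 array, against 4.09% of all genes. The median difference was 1.094. Epcam, an adhesion molecule of all epithelia, was at 9.78, 9.26, 9.04, 9.58 and 9.06 in SD-101+anti-PD-1, against 7.93, 8.31, 7.83, 7.92, 8.32 and 8.24 in SD-101, and rose by 1.25 ± 0.29 (SE; adjusted p = 0.0192 in limma). Etv5, a transcription factor that maintains alveolar type 2 cells, rose by 1.73 at the edge of the threshold, and its call held in only 1 of 11 fits without 1 array, that without SD-101 replicate 2 (adjusted p at most 0.139). Sftpc, already close to the highest value on these arrays (13.44), differed by 0.40 and was not called (adjusted p = 0.151 in limma; named after its values were seen). Without SD-101+anti-PD-1 replicate 1 or 4, no alveolar gene was called.

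The 15 genes of 4T1 carcinoma and simple epithelia do not tell tumour from airway or alveolar epithelium. Of these, 5 rose and 0 fell, where 3.52% of all genes rose. Esrp1, a splicing regulator of epithelia, was at 7.19, 6.89, 6.55, 6.90 and 6.09 in SD-101+anti-PD-1, against 5.37, 5.43, 4.88, 4.13, 4.89 and 5.04 in SD-101 (rise 1.77 ± 0.40, SE; adjusted p = 0.0172 in limma). Grhl2, a transcription factor of epithelial junctions, and Elf3, an epithelial ETS factor, rose by 1.49 and 1.44 without overlap. Krt8 and Krt18, the keratins of simple epithelia, overlapped between the groups, with differences of 0.51 and 0.40. Without SD-101+anti-PD-1 replicate 1, 1 of the 15 was called. The rises of Prss8, a membrane protease that activates epithelial sodium channels, Slc44a3, a choline transporter-like gene, and Clic6, a chloride channel family gene, were 2.20, 2.20 and 2.32, and their calls were lost without SD-101+anti-PD-1 replicate 1 or 4 or SD-101 replicate 4, among others (adjusted p at most 0.0707, 0.0994 and 0.0648).

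Of 25 measured fibroblast genes 1 rose, where 3.52% of all genes rose. This was Col1a2, a chain of collagen I, by 0.46. It was at 2.92 to 3.61 in SD-101+anti-PD-1 and 2.74 to 2.94 in SD-101, so nearly all of its values were below the array medians, and its call held in only 1 of 11 fits without 1 array, that without SD-101+anti-PD-1 replicate 3 (adjusted p at most 0.123). Col1a1, the other chain, named after its values were seen, was at 7.69, 8.99, 8.72, 8.38 and 7.66 in SD-101+anti-PD-1, against 6.28, 7.37, 6.66, 7.15, 7.28 and 7.15 in SD-101. Its groups did not overlap, but the difference of 1.31 ± 0.43 (SE) was not called (adjusted p = 0.092 in limma). Of the 25 differences 23 were positive, with a median of 0.909. Of 11 smooth muscle and pericyte genes (median difference -0.09) 1 fell, where 1.25% of all genes fell. This was Rgs5, a pericyte gene. It was at 2.99, 5.01, 2.72, 2.76 and 2.65 in SD-101+anti-PD-1, against 4.73, 4.72, 5.56, 4.63, 5.07 and 4.34 in SD-101. SD-101+anti-PD-1 replicate 2 was with the SD-101 arrays and the rest were below them. Its call was lost in 5 of 11 fits (adjusted p at most 0.0808).

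Some clock genes rose. Of 14 measured circadian genes 3 rose and 0 fell, where 3.52% of all genes rose and 1.25% fell. The list median was 0.021. Per3, a period gene of the negative limb, was at 6.66, 6.38, 6.69, 6.76 and 6.59 in SD-101+anti-PD-1, against 5.25, 5.47, 5.49, 4.47, 5.77 and 5.10 in SD-101. It rose by 1.36 ± 0.29 (SE; adjusted p = 0.0127 in limma) with no overlap, and the SD-101+anti-PD-1 arrays were within 0.4 of each other. Tef, an output factor that binds D-box elements, and Per2 rose by 0.58 and 0.64, and Arntl and Cry1 differed by -0.15 and -0.01. Per3 kept its call in all 11 fits without 1 array, Tef in 7 and Per2 in 1.

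**Figure D5:**
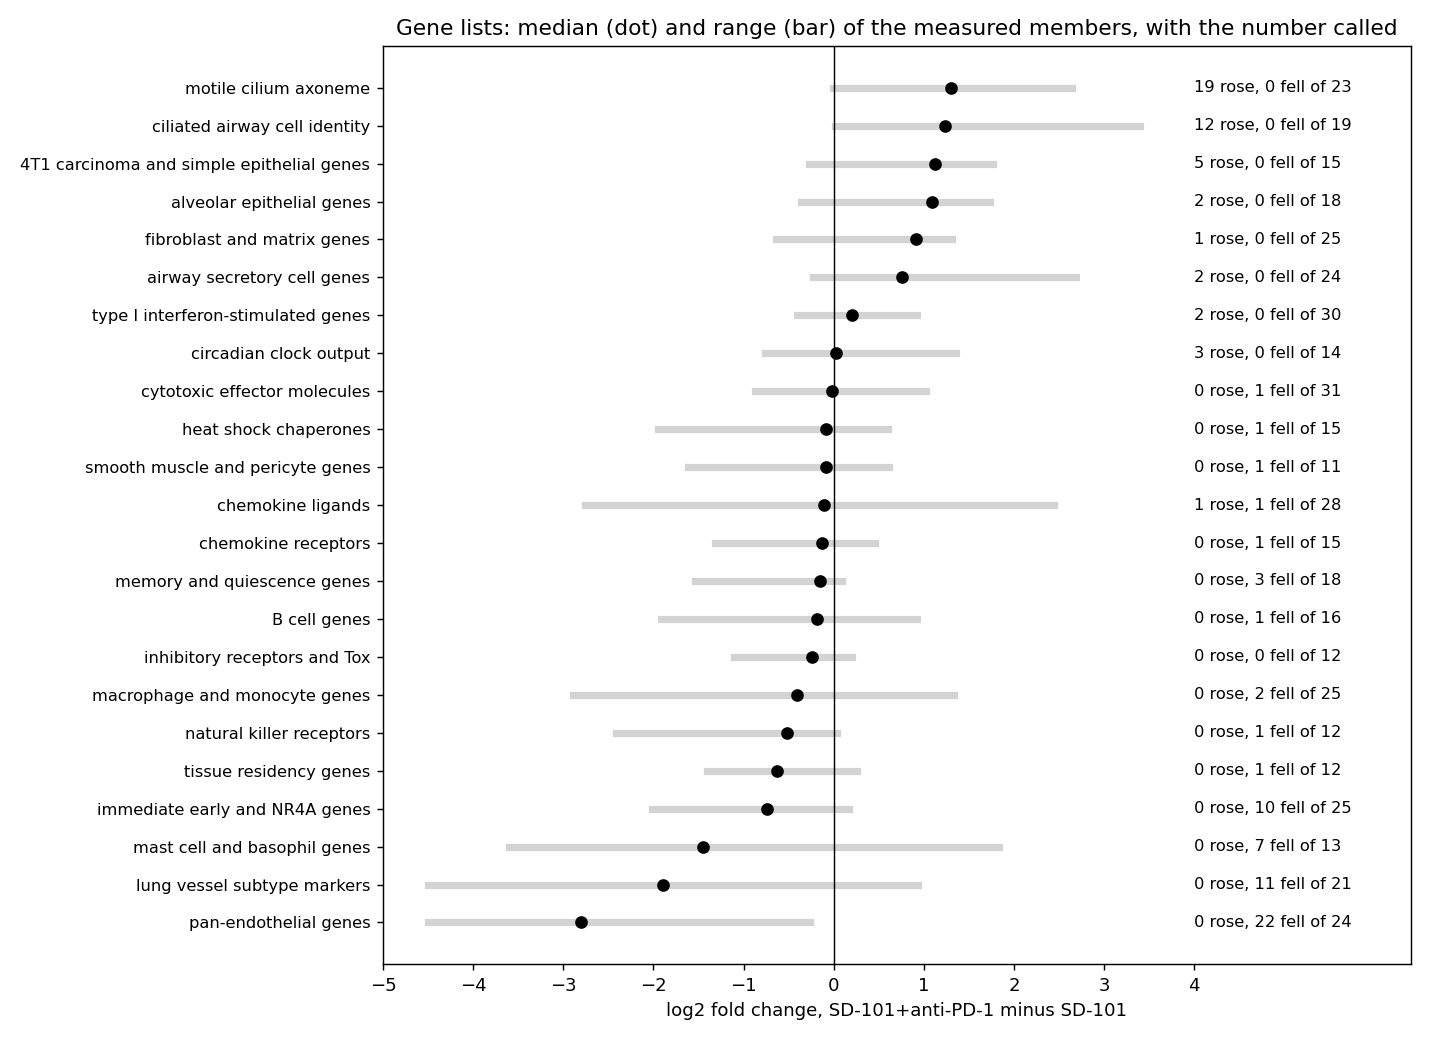
Median (dot) and range (grey bar) of the log2 fold change, SD-101+anti-PD-1 minus SD-101, over the measured members of 23 gene lists, with the number that rose and fell beside each. Endothelial, vessel subtype and mast cell lists have the lowest medians (-2.798, -1.889 and -1.454) and the 2 cilium lists the highest (1.301 and 1.237), while cytotoxic and clock lists centre near 0.

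Of 41 gene lists examined, 22 had a called member and 19 had none. Lists with none included DNA replication (29 measured, median -0.152), mitosis (29 measured, median -0.089), interferon-inducible GTPases (12 measured, median 0.082) and the respiratory chain (27 measured, median 0.029). Medians of the 19 lay between -1.116, for 11 dendritic cell genes, and 0.418, for 15 genes of cholesterol synthesis. Tlr9, the receptor for SD-101, was at 2.61 to 2.89 in SD-101+anti-PD-1 and 2.63 to 3.12 in SD-101, below the array medians. Cd44, the other marker of the sort, differed by -0.13 (interval -0.56 to 0.30), and Il2ra, the high-affinity IL-2 receptor chain, by 0.03 (interval -0.61 to 0.67).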

How the data were processed

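Log2 expression values per probe set were deposited by the authors for 45141 probe sets of Affymetrix arrays. Per the submitters' processing notes, affy, RMA and limma were used and the build mm8 was named, with no version or role given. These deposited log2 values (1.78 to 13.44, array medians 3.52 to 3.75) were used without further normalization. Probe sets with 1 gene symbol (28898) were kept and, for 7180 genes with several, the one of highest mean over 20 arrays. In all, 15692 probe sets had no listed gene and 551 several.

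All 4 groups were fitted with group means in limma 3.58.1 (R 4.3.3). The test of SD-101+anti-PD-1 minus SD-101 was moderated and 2-sided, with Benjamini-Hochberg adjustment over 17097 genes and a threshold of 0.05. The fit was checked on simulated data. No list was tested as a set. Arrays carry no depth; their number limits precision.

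Named genes were the 15 largest called rises and falls outside predicted genes and receptor segments, up to 4 called members of smallest p per list (members of smallest p where none was called), and single genes; further names are marked. The comparison, lists and rule were chosen with earlier results of these data known. Of 796 list genes 700 were measured. Alternatives changed the probe set rule, scaling, level filter, variance model, array weights, groups fitted, a block on replicate number and the arrays included. Leaving out SD-101 replicates 1 and 2, or 5 and 6, was added after seeing the data, because these pairs stood apart in list scores.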

Additional observations from a re-analysis of the deposited data

Results flagged for a closer look

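In 4 genes among 109 named, 1 array stood far from the rest of its group, by its gap to the nearest array relative to the range. Chance flags about 1 in 20 groups, which over the 218 groups checked is about 10.9, more than the 4 found. Klf4 was lowest in SD-101 replicate 1, at 8.21, with the next at 9.02. Etv5 was lowest in SD-101 replicate 4, at 5.63, with the next at 7.02. Rgs5 was highest in SD-101+anti-PD-1 replicate 2, at 5.01, with the next at 2.99. Eomes was lowest in SD-101 replicate 2, at 7.81, with the next at 8.47.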

How the results depend on the processing

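Of 83 called genes among 109 named, 0 changed sign under any of 23 other settings and 46 stayed called under every one that tested them. Against 816 calls (602 rose, 214 fell), genes above the median level gave 325 calls (179 rose; 8548 genes tested), array weights 2760 (1892 rose, 868 fell), a fit of both groups alone 1332 (998 rose, 334 fell) and a minimum difference of 1 left 473 (325 rose). Leaving out SD-101 replicates 1 and 2 gave 1261 (979 rose), and leaving out replicates 5 and 6 gave 514 (245 rose, 269 fell), so the share that rose was 47.7% in place of 73.8%. Leaving out each array in turn gave 317 to 1081 calls, 217 to 812 rises and 100 to 269 falls. Deviations of same-numbered arrays correlated at -0.19 to 0.38 over 5 pairs, highest for replicate 2. Whether replicate numbers pair the arrays was not settled by these values. A fit with a replicate block gave 751 calls, 467 rises and 284 falls, and 607 of its calls were shared with the main fit. Other probe set rules, scalings and the trend model gave 711 to 885 calls. The cause was not tested.

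Some genes near 0 that were not called changed sign. Under array weights the difference was -0.0097 for Pdcd1, -0.051 for Cd8a, -0.053 for Cd4 and -0.025 for Tbx21. Centring on array medians gave -0.018 for Cd8a, -0.029 for Cd4 and -0.0056 for Il2ra, quantile normalization -0.0085 for Cd4 and -0.0079 for Il2ra, and cyclic loess -0.0062 for Cd4. Without SD-101 replicates 1 and 2 it was -0.24 for Pdcd1, -0.067 for Cd8a, -0.0084 for Cd4, -0.18 for Il2ra and -0.11 for Tbx21. Without replicates 5 and 6 it was 0.037 for Cd8b1 and 0.13 for Eomes, and the replicate block gave 0.0403 for Eomes. Leaving out 1 array gave ranges of -0.088 to 0.072 for Cd8a, -0.15 to 0.0197 for Cd8b1, -0.29 to 0.011 for Cd44, -0.0798 to 0.0777 for Cd4, -0.10 to 0.13 for Il2ra, -0.025 to 0.18 for Tbx21 and -0.17 to 0.14 for Eomes.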

Other observations

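Further genes of vessel biology, on no list used here and named after their values were seen, were lower with anti-PD-1. Notch4, a Notch receptor of endothelium, was at 2.89, 3.19, 2.70, 3.05 and 2.78 in SD-101+anti-PD-1, against 6.64, 5.54, 6.54, 6.67, 4.72 and 3.46 in SD-101. Dll4, its arterial and tip cell ligand, was at 3.60, 3.65, 3.48, 3.65 and 3.66 in SD-101+anti-PD-1, against 6.72, 6.52, 6.4, 6.38, 4.47 and 3.85 in SD-101. In both, SD-101 replicates 5 and 6 were the lowest of their group. Edn1, the vasoconstrictor endothelin-1, Pdgfb, which recruits pericytes, Ace, the angiotensin-converting enzyme of lung capillaries, and Icam2, an adhesion molecule of endothelium and leukocytes, fell by 2.32, 1.5, 1.56 and 1.35. The calls of Dll4 and Edn1 were lost in 7 and 5 of 11 fits without 1 array (adjusted p up to 0.0796 and 0.0773 in limma), and that of Ace without SD-101+anti-PD-1 replicate 4 (adjusted p = 0.0522).

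Sgk1, a kinase induced by glucocorticoids and salt, fell by 1.08 with no overlap: it was at 8.75, 8.64, 8.42, 8.81 and 9.38 in SD-101+anti-PD-1, against 9.60, 9.59, 10.16, 10.24, 9.95 and 9.77 in SD-101. Il33, an alarmin of alveolar type 2 and stromal cells, was at 10.19, 10.35, 9.27, 9.81 and 9.03 in SD-101+anti-PD-1, against 7.73, 9.29, 7.58, 6.18, 7.94 and 7.75 in SD-101, and rose by 1.98; its call held without SD-101+anti-PD-1 replicate 5 or SD-101 replicate 2 and in no other of the 11 fits. Hbb-b2, a beta globin of red cells that shares sequence with its paralogue and is therefore uncertain, fell by 2.41, with SD-101 replicate 1 the highest at 9.83 and a call lost in 5 of 11 fits (adjusted p up to 0.087). Sgk1, Il33 and Hbb-b2 were named after their values were seen.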
